A study of Mus musculus with 2 samples.

Results

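Later-intron regions were 18508 of 96735 DNase-accessible regions found in both libraries of adult mouse kidney, or 19.1%. They were chosen by position alone. A region was a merged overlap of peaks that held a peak of each library, on chromosomes 1 to 19 and X. It lay more than 2000 bases from every protein-coding transcription start site (TSS) and touched no annotated exon. Its midpoint fell in intron 2 or later of the longest coding transcript of a gene, and in no first intron. The classes set beside it under the same limits were 8182 first-intron regions and 32092 intergenic regions. A noncoding transcript of the same gene may begin inside a later intron, and such starts were not counted. Of the members, 580 (3.13%) lay within 2000 bases of a TSS of a gene not annotated as protein-coding.

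The data were 2 DNase-seq libraries of whole kidney from female B6CASTF1/J mice aged 8 to 10 months, with no treatment and no other group. DNase-seq reads the cuts that the enzyme DNase I makes in nuclei, so a peak marks accessible chromatin and a footprint marks a short stretch inside it that was cut less. The strain is a hybrid of C57BL/6J and CAST/EiJ parents, while peaks and sequence refer to the C57BL/6J reference, so alleles of the other parent are not shown. The libraries are biological replicates 1 and 2 under a single donor entry. Separate animals are not stated, so the spread between them may be technical. Whole tissue mixes all kidney cell types, and fewer cells of a type cannot be told apart from less accessibility per cell. As a check of the tissue, promoters were read for listed genes with later-intron sequence. They were open at 11441 of the 16067 genes with such sequence. The counts were 18 of 20 for proximal tubule, 11 of 11 for endothelium and 6 of 9 for podocytes. They were open at none of 11 immune cell genes, 3 of 12 neuronal, 3 of 10 hepatocyte and 6 of 12 striated muscle genes. The longer peak lists held 137060 peaks in replicate 1 and 124976 in replicate 2.

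Introns behind the first one are transcribed and spliced out, and carry enhancers, insulators and internal promoters. CTCF, a zinc finger protein, binds such sites and anchors chromatin loops together with cohesin. In kidney epithelium, HNF1 and HNF4 are homeodomain and nuclear receptor factors known for tubule gene programmes. An accessible intronic region can act on its host gene, on a neighbour or on neither, and accessibility alone does not say which.

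Sequences of 8 members show CTCF, the motif called as more frequent than in first introns, and 6 further motifs whose shares are described below. Each is 90 bases of the RefSeq GRCm38.p6 genome, written 5′ to 3′, with the bases that match the motif in capitals. By rule each was the strongest member with the motif in a footprint found in both libraries, widened by 5 bases on each side. The Prkce sequence was added after its values were seen, as the strongest member with a CTCF match wholly inside a shared footprint without widening. The matches shown in Rxra, Rara and Fam53b lie outside the central 150 bases of their regions, which is where the shares below were counted. The Rxra match runs just past the end of its region.
CTCF in Prkce, chr17:86445061-86445150, minus strand: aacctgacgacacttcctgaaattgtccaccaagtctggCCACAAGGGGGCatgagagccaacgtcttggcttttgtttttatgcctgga
CTCF in Fstl3, chr10:79780340-79780429, minus strand: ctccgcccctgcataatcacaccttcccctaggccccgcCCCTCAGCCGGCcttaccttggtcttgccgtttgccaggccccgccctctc
HNF1 in Rxra, chr2:27758652-27758741, plus strand: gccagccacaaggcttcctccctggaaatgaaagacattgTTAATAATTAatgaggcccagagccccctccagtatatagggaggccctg
HNF4 in Rara, chr11:98951435-98951524, plus strand: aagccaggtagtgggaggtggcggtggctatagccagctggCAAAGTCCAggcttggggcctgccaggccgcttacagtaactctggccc
E-box in Cry2, chr2:92423825-92423914, plus strand: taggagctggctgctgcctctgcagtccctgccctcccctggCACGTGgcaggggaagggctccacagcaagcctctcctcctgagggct
AP-1 in Fam53b, chr7:132723999-132724088, plus strand: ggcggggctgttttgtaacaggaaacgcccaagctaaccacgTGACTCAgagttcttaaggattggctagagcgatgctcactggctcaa
NFI in Col26a1, chr5:136791041-136791130, plus strand: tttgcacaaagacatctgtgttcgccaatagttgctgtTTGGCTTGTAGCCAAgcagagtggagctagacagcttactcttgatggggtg
YY1 in Foxk1, chr5:142448297-142448386, minus strand: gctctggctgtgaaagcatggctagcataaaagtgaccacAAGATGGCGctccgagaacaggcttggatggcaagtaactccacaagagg

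Members were short and mostly of moderate signal, a value per peak that the authors deposited without a stated unit. Their median width was 220 bases. The median signal of later-intron regions was 0.860 in replicate 1 and 0.825 in replicate 2. First-intron regions had 1.03 and 0.925 in the same libraries, and intergenic regions 0.835 and 0.834. From the 10th to the 90th percentile the mean of both libraries ran from 0.378 to 2.46, and 280 members (1.51%) reached 5 or more. Their 150-base centres had a median GC content of 50.7%, against 42.0% over all later-intron sequence. Repeats marked by soft-masking covered 9.47% of these centres on average and 29.7% of later-intron sequence.

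Later introns held fewer regions per Mb than first introns and more than intergenic sequence. Over 565 Mb of later-intron sequence that could hold a member, the density was 32.8 regions per Mb, with a 95% exact Poisson interval of 32.3 to 33.2. First introns held 43.7 per Mb (42.7 to 44.6) and intergenic sequence 22.0 per Mb (21.8 to 22.3). In the libraries taken singly, the ratio of later to first introns was 0.747 in replicate 1 and 0.752 in replicate 2, and that of later introns to intergenic sequence 1.49 and 1.46. These intervals and all others cover counting error only.

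The gap to first introns was seen near start sites and not far from them. From 2 to 5 kb from the nearest coding TSS, later introns held 43.6 regions per Mb (41.4 to 45.8), against 61.2 (58.5 to 64.1) in first introns. From 20 to 50 kb the densities were 39.2 (38.2 to 40.2) and 43.1 (41.2 to 45.1). From 50 to 100 kb they were 31.6 (30.5 to 32.7) and 31.8 (29.6 to 34.1), and the intervals overlapped from there on. Intergenic sequence had 46.4 regions per Mb (44.5 to 48.3) at 2 to 5 kb, above later introns but with overlapping intervals. At 20 to 50 kb it had 36.0 (35.2 to 36.8), below later introns. Beyond 200 kb it had 7.35 (7.12 to 7.57), where later introns had 12.2 (11.4 to 13.05). Members lay at a median of 29.2 kb from the nearest coding TSS, against 12.6 kb for first-intron and 40.2 kb for intergenic regions. That TSS belonged to the host gene for 76.2% of members and 92.5% of first-intron regions.

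**Figure D1:**
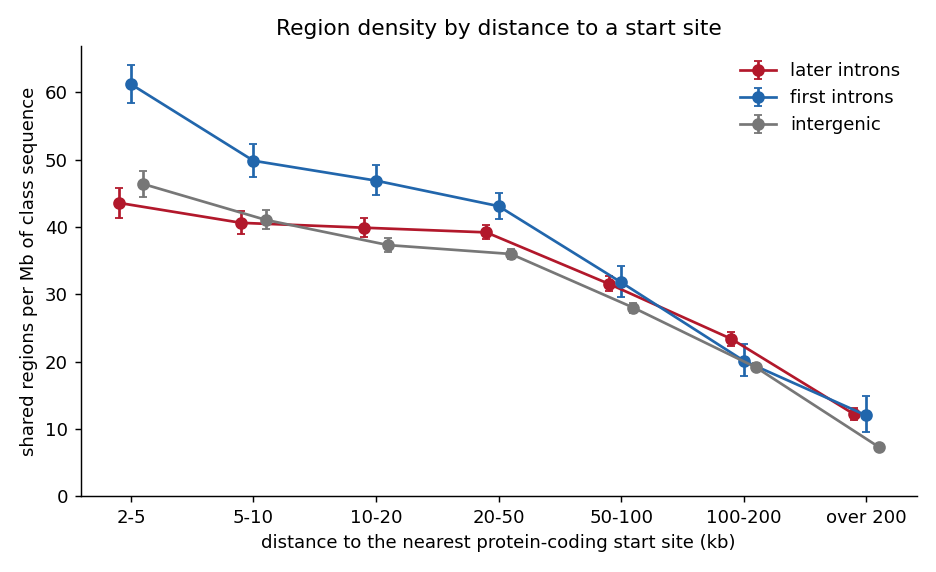
Shared regions per Mb of class sequence (y axis) by distance to the nearest protein-coding start site in kb (x axis), for later introns, first introns and intergenic sequence. Bars are 95% exact Poisson intervals. Later introns lie at 43.6 per Mb and first introns at 61.2 per Mb in the nearest bin, and at 12.2 and 12.01 per Mb beyond 200 kb.

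Density and signal were lower in introns 11 and beyond than in intron 2. Intron 2 held 4398 members at 37.0 per Mb (35.9 to 38.1), and introns 11 and beyond held 4052 at 29.2 per Mb (28.3 to 30.1). The median signal in replicate 1 was 0.967 in intron 2 and 0.769 in introns 11 and beyond, and in replicate 2 it was 0.859 and 0.792. The median distance to a coding TSS also differed, at 20.4 kb in intron 2 and 36.7 kb in introns 11 and beyond. The part of distance was not tested. Members sat in 11675 of 123584 later introns, and 54.1% shared their intron with another member, with a median gap of 3.22 kb between neighbours. Chromosome X carried 256 members at 9.81 per Mb (8.65 to 11.1), against 33.9 per Mb on autosomes, where the range was 24.8 on chromosome 3 to 43.6 on chromosome 11. First-intron and intergenic regions were also sparser there, at 19.8 and 7.51 per Mb on X against 44.7 and 23.3 on autosomes.

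Host genes numbered 6057 of the 16067 protein-coding genes with later-intron sequence (37.7%). The median host held 2 members, 2725 hosts held 1, and 336 hosts with 10 or more held 27.3% of members. Most members lay in genes whose promoter was open, meaning that a shared region overlapped the 500 bases on either side of a coding TSS. This held for 85.5% of later-intron members (85.0 to 86.0) and 89.0% of first-intron regions (88.3 to 89.6), a difference of -3.44 percentage points (two-sided Fisher's exact test, adjusted p = 4.14e-14). Genes with an open promoter numbered 11441 of the 16067 and held 73.2% of later-intron sequence. Hosts with an open promoter had 38.0 members per Mb (37.4 to 38.6) and those without 17.7 (17.0 to 18.3). The ratio was 2.16, and in single libraries 2.05 and 2.08. Members in open hosts also had higher median signals, 0.893 and 0.850 in replicates 1 and 2, against 0.661 and 0.709 in hosts without an open promoter. Regions are the units of these tests, not animals, and regions of a gene are not independent, so the p-values are too small and describe these libraries only.

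Among host genes, those with the most members were long and acted in several processes. Msi2, an RNA-binding protein gene on chromosome 11, held 41 members in 7 of its introns, with 15 in intron 5. Their median signal was 1.28 in replicate 1 and 1.09 in replicate 2, and 30 carried a shared footprint. Itpr1, the inositol trisphosphate receptor calcium channel gene, held 40 members in 17 introns, and 4 of them were higher in replicate 2. Over all genes, replicate 2 was higher at 5554 of 15626 members without a CTCF match and 2415 of 2882 with a match. Camta1, a calmodulin-binding transcription activator gene, held 38, and Rad51b, a gene of homologous recombination, held 35, of which 20 lay in intron 7.

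Tns1 had the highest median signals of the 10 genes. It encodes tensin 1, which links integrins to actin at focal adhesions. Its 34 members had median signals of 2.58 and 2.31, and none had a mean under 1.10. Its density was 26.9 per 100 kb of later-intron sequence, against 3.26 per 100 kb over all genes. The other genes by this rule held 30 to 33 members each. They were Glis3, a zinc finger factor gene linked to cystic kidney disease, Arid1b, a subunit gene of the BAF chromatin remodeller, Ctif, of cap-dependent translation, Plcb1, a phospholipase C gene, and Prkce, a protein kinase C gene. Glis3 members had median signals of 1.41 and 0.967, and Plcb1 members 0.628 and 0.659. All 10 genes had an open promoter, as did 11441 of the 16067 genes with later-intron sequence.

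Genes with little later-intron sequence led when members were counted per length. Among hosts with 5 or more, the densest were Myh3 at 51.0, Arid3a at 47.4, Cda at 43.1, Smad7 at 42.9 and Smad3 at 39.96 members per 100 kb. Smad3 carries transforming growth factor beta signals and Smad7 inhibits them. Smad7 held 9 members in introns 2 and 3, the strongest with 9.79 in replicate 1 and 7.204 in replicate 2. The other 5 were Aif1l, Bicra, Rara, Nfic and Cotl1, at 36.3 to 38.9 per 100 kb. Myh3, an embryonic myosin heavy chain gene, was the only one of the 10 without an open promoter, and its 5 members had mean signals of 0.723 to 1.59. Among all hosts without an open promoter, chosen after their values were seen, Msra and Rbfox3 held 23 members each, Tenm2 22 and Slc14a2 20. Slc14a2, the urea transporter gene of the inner medulla, had 13 of its 20 in intron 3.

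The strongest members whose libraries differed by less than 2-fold lay in genes of varied function. The highest was in intron 3 of Fstl3, an activin-binding protein gene, at chr10:79780201-79780560, with signals of 18.8 in replicate 1 and 16.0 in replicate 2. It lay 2.93 kb from a coding TSS, so near the limit of the rule. A region 135 kb from the nearest coding TSS was next, in intron 2 of the insulin-like growth factor receptor gene Igf1r (chr7:68129101-68129320), with 16.4 and 17.7. That intron held 26 members, the most of any single intron, a count looked up after the values were seen. Itpkb, an inositol trisphosphate kinase gene, had 14.8 and 15.8 at a region in intron 2 (chr1:180387521-180387760).

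Cry2, a repressor of the circadian clock, had 13.3 and 13.9 at a region in intron 3 (chr2:92423821-92424040). Its printed sequence holds CACGTG, the E-box that clock and other basic helix-loop-helix factors bind. Lama5, the laminin chain of the glomerular basement membrane, had 12.3 and 12.7 in intron 2. The remaining 7 regions were in Atoh8, Klhl29, Foxk1, Angptl4, Diaph1, Prdm16 and Trpm3, with mean signals of 11.1 to 13.3. Those in Prdm16 and Trpm3 lay 140 and 150 kb from the nearest coding TSS. The 12 regions held 3 to 7 shared footprints each.

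Over all genes with later-intron sequence, the median was 0 members and the density 3.26 per 100 kb. The intervals of kidney transcription factors, junction scaffolds, proximal tubule, distal convoluted tubule and endothelium lay above that value. Those of podocytes, immune cells, neurons and striated muscle lay below it, and those of the other lists included it. These intervals cover counting error only, and several of these positions rested on 1 gene. Without the gene with most later-intron sequence, an alternative added after the data were seen, the intervals of proximal tubule, endothelium, podocytes, immune cells and striated muscle included 3.26. Of 19 kidney transcription factor genes with such sequence, 15 held a member, with a median of 4 and a density of 7.08 per 100 kb (5.90 to 8.43). The nuclear factor I genes Nfia and Nfib held 21 and 20, and Tead1, the DNA-binding partner of the Hippo pathway, held 17. The strongest member of that list, in intron 2 of Nfia, had signals of 9.85 and 11.6. Hnf4g, Esrra and Thrb were among those without a member.

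Junction and polarity scaffold genes, which build cell contacts and apical domains, held members in 15 of 16 genes, with a median of 7 and 5.37 per 100 kb (4.56 to 6.28). After Tns1, Pard3 held 27 and Shroom3, which acts in apical constriction, held 16. Proximal tubule genes held members in 10 of 20, with a median of 0.5 and 5.30 per 100 kb (3.82 to 7.16). Slc4a4, the basolateral bicarbonate cotransporter, held 17. Slc3a1, a subunit of the cystine transporter, held 6, all with a shared footprint and all higher in replicate 1, with median signals of 3.17 and 2.04. Over the whole list, 14 of 42 members were higher in replicate 2. Cubn, the endocytic receptor cubilin, also held 6, but 1 had a footprint and the medians were 0.794 and 0.538. Slc22a6 and Fbp1 were among the genes of that list without a member.

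Distal convoluted tubule genes held members in 8 of 12, at 5.70 per 100 kb (3.90 to 8.05). Of these, the kinase gene Stk39 held 10, and Klhl3, an adaptor that marks WNK kinases for degradation, held 8 with medians of 1.74 and 2.01. The strongest member of Klhl3 reached 5.58 and 5.10. Magnesium channel gene Trpm6 held 5. Thick ascending limb genes held 9 members in 5 of 11 genes, at 4.32 per 100 kb (1.98 to 8.21), with 3 in Slc12a1, the sodium-potassium-chloride cotransporter, and 2 each in Egf and Tmem207. Intercalated cell genes held 11 in 3 of 11 genes, among them 5 in Car12, a carbonic anhydrase, whose strongest had 7.33 and 3.82, and 3 each in the proton pump subunits Atp6v0d2 and Atp6v0a4. Of 9 principal cell genes only Elf5, an ETS factor gene, held any, and its 5 members had medians of 0.802 and 1.38. Their per-length interval was wide, at 5.96 per 100 kb (1.93 to 13.9).

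Endothelial genes held 27 members in 8 of 11 genes, at 5.73 per 100 kb (3.78 to 8.34), with 13 in the VEGF receptor gene Flt1, 7 in Pecam1 and 2 in Tek. Pecam1 had the strongest, with 3.80 and 4.95. Podocyte genes held 32 in 6 of 9 genes, at 2.28 per 100 kb (1.56 to 3.22), with 15 in Magi2, 6 in Thsd7a and 5 in Ptpro, and medians of 0.558 and 0.400. Magi2 held 995 of the list's 1401 kb, and without it the value was 4.19 per 100 kb (2.44 to 6.71). Without Flt1 the endothelial value was 3.97 (2.17 to 6.67). The strongest podocyte member was in Clic5, with 1.94 and 2.90. Stromal and mural genes held 18 in 7 of 12 genes, at 3.81 per 100 kb (2.26 to 6.02), with 4 each in Itga8 and Meis1 and the strongest in Pdgfrb, a receptor of pericytes, with 2.04 and 5.55.

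Lists of other tissues were not empty. Neuronal genes held 81 members in 10 of 12 genes, which is 1.03 per 100 kb (0.816 to 1.28) of their 7.88 Mb of later introns. Dlg2 held 18, Rbfox1 15 and Grin2b 11, all without an open promoter, and the list's median signals were 0.513 and 0.517. A region of the synaptotagmin gene Syt1 reached 3.41 and 2.95. Striated muscle genes had 0.959 per 100 kb (0.632 to 1.40), with 8 members in the dystrophin gene Dmd, 6 in Myom1 and 3 in Cacna1s. Without Dmd, which held 2019 of the list's 2815 kb, the value was 2.39 (1.44 to 3.73). Myom1 held the strongest, with 5.41 and 3.36. Immune cell genes held 3 members, 2 in Ptprc and 1 in Csf1r, at 1.06 per 100 kb (0.219 to 3.10), or 1.79 (0.368 to 5.22) without Adgre1, and none had a shared footprint. Hepatocyte genes held 5, 3 in Cps1 and 2 in F9, also without footprints, at 3.43 per 100 kb (1.11 to 8.01). Median signals in replicates 1 and 2 were low, at 0.364 and 0.559 for the immune and 0.347 and 0.559 for the hepatocyte list. Over all members, 14.5% under a signal of 0.5 and 56.5% from 0.5 to 1 had a shared footprint. Per-length values of short lists rest on few members, and no test of a list was made.

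**Figure D2:**
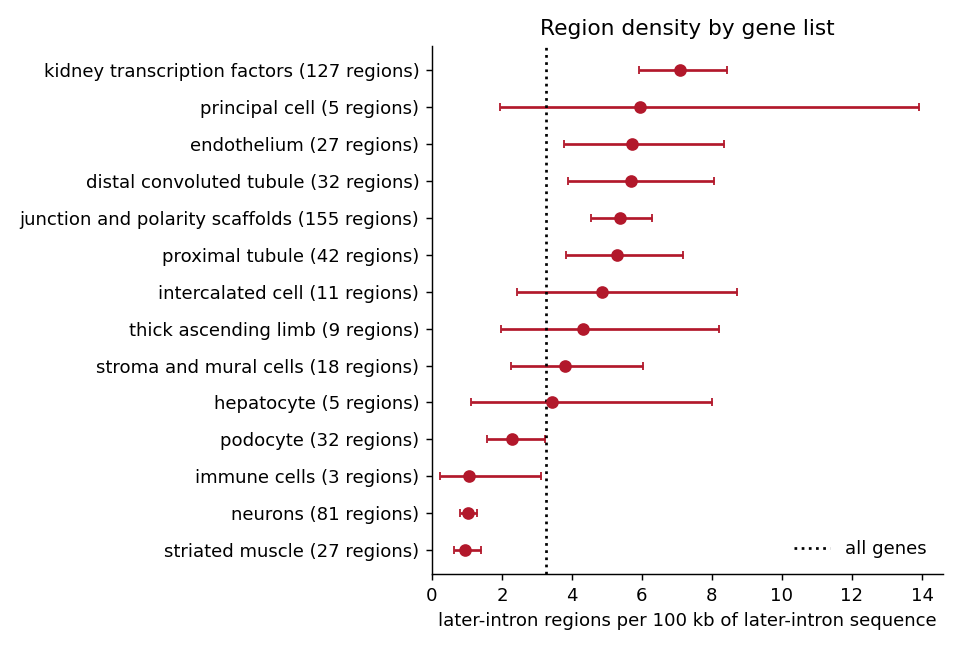
Later-intron regions per 100 kb of later-intron sequence (x axis) for 14 gene lists (y axis), with 95% exact Poisson intervals. The dotted line is the value over all genes, 3.26. Kidney transcription factors lie at 7.08, and neurons and striated muscle at 1.03 and 0.959.

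CTCF matches set later introns apart from first introns. The motif CCNNNAGNNGGC, on either strand of the 150 bases around the midpoint, was found in 2882 later-intron regions, or 15.6% (95% exact binomial interval 15.1 to 16.1). It was found in 771 first-intron regions, or 9.42% (8.80 to 10.1), a ratio of 1.65 (two-sided Fisher's exact test, adjusted p = 5.83e-42). Intergenic regions had it in 16.9% (16.5 to 17.4). Windows 1000 bases beside the members, outside peaks and exons, had it in 2.13%. Among all shared regions 13.9% held it, and among those near a TSS 10.0%. In libraries taken singly the shares for later and first introns were 11.7% and 7.33% in replicate 1, and 15.9% and 9.75% in replicate 2. At 20 to 50 kb from a TSS, a bin chosen after the data were seen, they were 15.3% and 8.85%. Intervals of these classes lay apart in each distance bin up to 100 kb and overlapped beyond. From 100 to 200 kb the shares were 11.5% (10.1 to 13.1) and 11.1% (7.70 to 15.3). By signal, the intervals lay apart in each bin under 5. At 5 or more the shares were 14.3% (10.4 to 18.9) and 12.2% (7.82 to 17.9).

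Both more regions with a match and fewer without one made up this difference. Later introns held 5.10 regions with a CTCF match per Mb (4.92 to 5.29), against 4.11 (3.83 to 4.41) in first introns and 3.73 (3.63 to 3.83) in intergenic sequence. Without a match they held 27.7 per Mb (27.2 to 28.1), against 39.5 (38.6 to 40.4) and 18.3 (18.1 to 18.5). The share differed along the gene as well. It was 11.2% (10.3 to 12.2) in intron 2, 13.6% (12.3 to 14.9) in intron 3 and 19.4% (18.2 to 20.6) in introns 11 and beyond. Per Mb, regions with a match numbered 4.15 (3.79 to 4.53) in intron 2 and 5.65 (5.26 to 6.06) in introns 11 and beyond, and those without numbered 32.9 (31.9 to 33.9) and 23.5 (22.7 to 24.3).

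**Figure D3:**
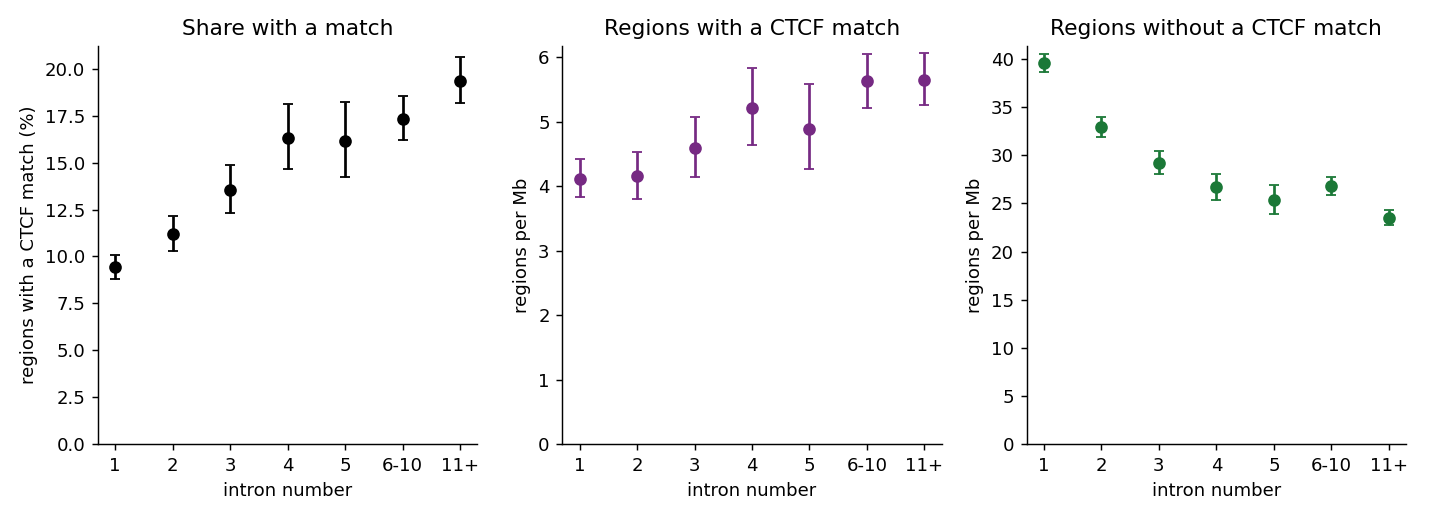
Share of regions with a CTCF match in % (left), and regions with (middle) and without (right) a match per Mb, by intron number (x axes), where intron 1 is the first-intron class. Bars are 95% exact binomial (left) and exact Poisson intervals. The share is 9.42% in intron 1 and 19.4% in introns 11 and beyond, where regions without a match are at 23.5 per Mb.

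Members in hosts without an open promoter held a CTCF match in 19.4% (17.9 to 20.9), against 14.9% (14.4 to 15.5) in open hosts. Members with a match carried a shared footprint in 76.4%, against 59.8% of those without. YY1 and NFI matches, in far fewer members, had 78.8% and 78.6%, and most other motifs had lower shares. Footprints over a CTCF match had a median length of 32 bases, against 19 over all 19599 footprints in members. Most other motifs also had medians above 19, such as YY1 (33) and HNF1 (28), but E-box, IRF and HOX/PBX did not. A longer footprint offers more letters to match, and the part this plays was not tested. Where only 1 orientation was present, 1302 matches lay on the strand of the host gene and 1537 on the other, so 45.9% (44.0 to 47.7) lay on the host's strand. First-intron regions had 44.8% (41.2 to 48.4).

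The libraries differed from each other at CTCF matches. Members with a match had a median signal of 0.785 in replicate 1 and 1.30 in replicate 2, a median log2 ratio of replicate 2 over replicate 1 of 0.75. Members without one had 0.868 and 0.767, a median log2 ratio of -0.21. Replicate 2 was higher at 83.8% of members with a match and 35.5% of those without. In all, 1717 members were over 2-fold higher in replicate 2, and 950 of them (55.3%) held a match. Of 1029 over 2-fold higher in replicate 1, 22 did (2.14%). The difference was seen outside later introns too. First-intron regions with a match had a median log2 ratio of 0.51 and intergenic ones 0.79, against -0.25 and -0.16 without. What differed between the libraries was not tested, and with 2 libraries no test across samples can be made.

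**Figure D4:**
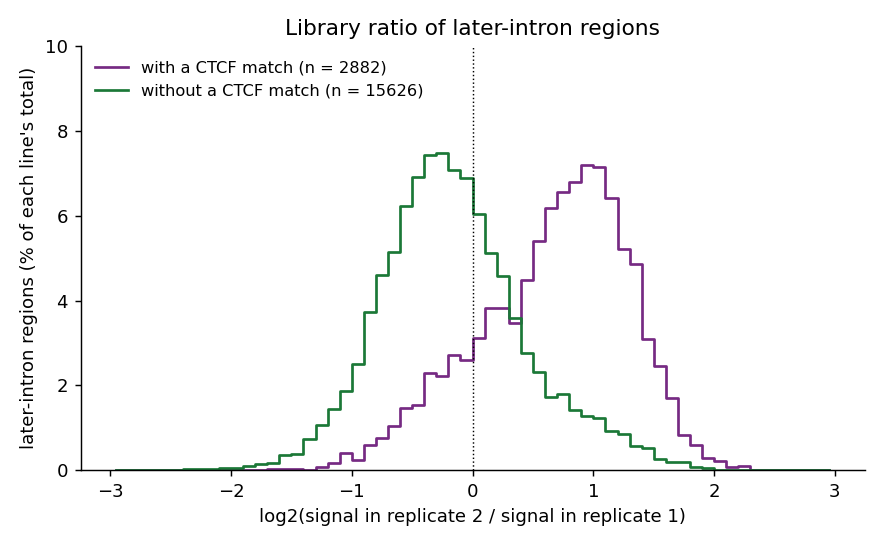
Distribution of the log2 ratio of signal in replicate 2 over replicate 1 (x axis) for later-intron regions with and without a CTCF match, in % of each group (y axis, steps of 0.1). The medians are 0.75 with a match and -0.21 without.

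The largest library differences among members of mean signal 1 or more went both ways. Kcnj3, a potassium channel gene, had 2.00 in replicate 1 and 0.367 in replicate 2 at a region in intron 3. Plcl1 had 3.19 and 0.617, and Mmadhc, of cobalamin handling, 2.26 and 0.467. Arfip1 had 0.372 in replicate 1 and 1.88 in replicate 2, Iqgap1, a cytoskeletal scaffold gene, 0.471 and 2.26, and Spg11 0.372 and 1.75. None of the 3 higher in replicate 1 carried a shared footprint, and neither did the Arfip1 region. A shared footprint needs a footprint in each library, and these regions were chosen as much weaker in 1 of them. Its absence was therefore partly set by the choice. Over all members 14.8% differed by more than 2-fold, against 10.0% of first-intron and 17.0% of intergenic regions.

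Of 28 motifs, 3 (10.7%) were called against first introns, with an adjusted p under 0.05 and a ratio of at least 5 to 4 or at most its inverse. Beside CTCF, 2 were rarer in later introns. SP/KLF (GGGCGGG), the GC box of many promoters, was in 2.38% of later-intron and 3.65% of first-intron regions, a ratio of 0.651 (Fisher's exact test, adjusted p = 1.94e-07). The estrogen-related receptor motif TCAAGGTCA was in 0.551% and 0.868%, a ratio of 0.635 (Fisher's exact test, adjusted p = 0.0260), a call lost under 8 of 12 alternatives. These were the shorter peak list, leaving out replicate 2, the stricter peak overlap and transcripts ranked by coding length. The others were stronger regions, a signal of 1 to 2, the strongest region per host and a 300-base window. CTCF was called under all 12, and SP/KLF under all but a signal of 1 to 2.

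Against intergenic regions, 3 of 28 motifs (10.7%) were called, all rarer in later introns. SP/KLF was in 2.38% against 3.40% (ratio 0.699, Fisher's exact test, adjusted p = 1.27e-09). The ETS motif CCGGAAGT was in 0.195% against 0.355% (ratio 0.548, Fisher's exact test, adjusted p = 0.0119). The interferon regulatory factor motif GAAANNGAAA was in 1.26% against 1.602% (ratio 0.786, Fisher's exact test, adjusted p = 0.0154). The ETS call was lost under 4 of 11 alternatives, which were the shorter peak list, leaving out replicate 1, the stricter peak overlap and a signal of 1 to 2. The IRF call was lost under 6. These were the shorter peak list, exons of protein-coding genes only and leaving out replicate 2. The others were stronger regions, a signal of 1 to 2 and a 300-base window. SP/KLF was lost at a signal of 1 to 2 only. Near a TSS, SP/KLF was in 24.0% and ETS in 3.13% of regions, so both were rarer in members than there. CTCF was below intergenic regions by a ratio of 0.919 (Fisher's exact test, adjusted p = 0.000851), which is inside the ratio limit.

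Of the 28 motifs, 23 were more frequent at members than in the windows beside them. The ratio was 15.9 for NFI, 10.2 for HNF4, 7.31 for CTCF and 4.26 for NRF1. That of HNF1, 2.51, was near those of PAX (2.85), STAT (2.75) and YY1 (2.68), and that of ERR was 1.40. HNF4 (CAAAGTCCA) was in 1.52% of members (1.35 to 1.71), against 0.149% of windows 1000 bases away. It was in 1.54% of first-intron and 1.44% of intergenic regions, and in 1.22% of all shared regions. HNF1 (TTAATNATTA) was in 0.654%, against 0.260% in the windows beside members and 0.549% of all shared regions. NFI (TTGGCNNNNNGCCAA) was in 0.151%, which is 28 members, against 3 of 31544 windows beside them. The share of all shared regions with it was 0.121%.

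The E-box was in 4.11% of members, against 2.05% of windows beside them and 4.62% of all shared regions. AP-1 (TGANTCA) was in 6.32%, against 4.32% and 5.43%. AGATAAG, bound by zinc finger factors of the GATA family, was rarer at members than beside them, at 1.28% against 2.05%. The IRF motif was also rarer, at 1.26% against 1.98%. SOX, MEF2 and RUNX were less far below, with ratios of 0.862, 0.958 and 0.964. Member centres had a median GC content of 50.7%, against 42.0% over later-intron sequence, and the part of base composition was not tested. The median log2 ratio of replicate 2 over replicate 1 was -0.60 for members with HNF1, -0.41 with ERR, -0.37 with HNF4, -0.32 with HOX/PBX and -0.30 with DR1. It was -0.21 for members without a CTCF match, and the differences were not tested. That of 33 members with YY1 (AAGATGGCG) was 0.80. YY1 was in 0.399% of all shared regions. Of the printed regions, signals in replicates 1 and 2 were 10.8 and 6.42 in Rara, 2.39 and 5.11 in Foxk1, and 9.70 and 11.5 in Rxra. These are descriptions of letters in a window, and no binding was measured.

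**Figure D5:**
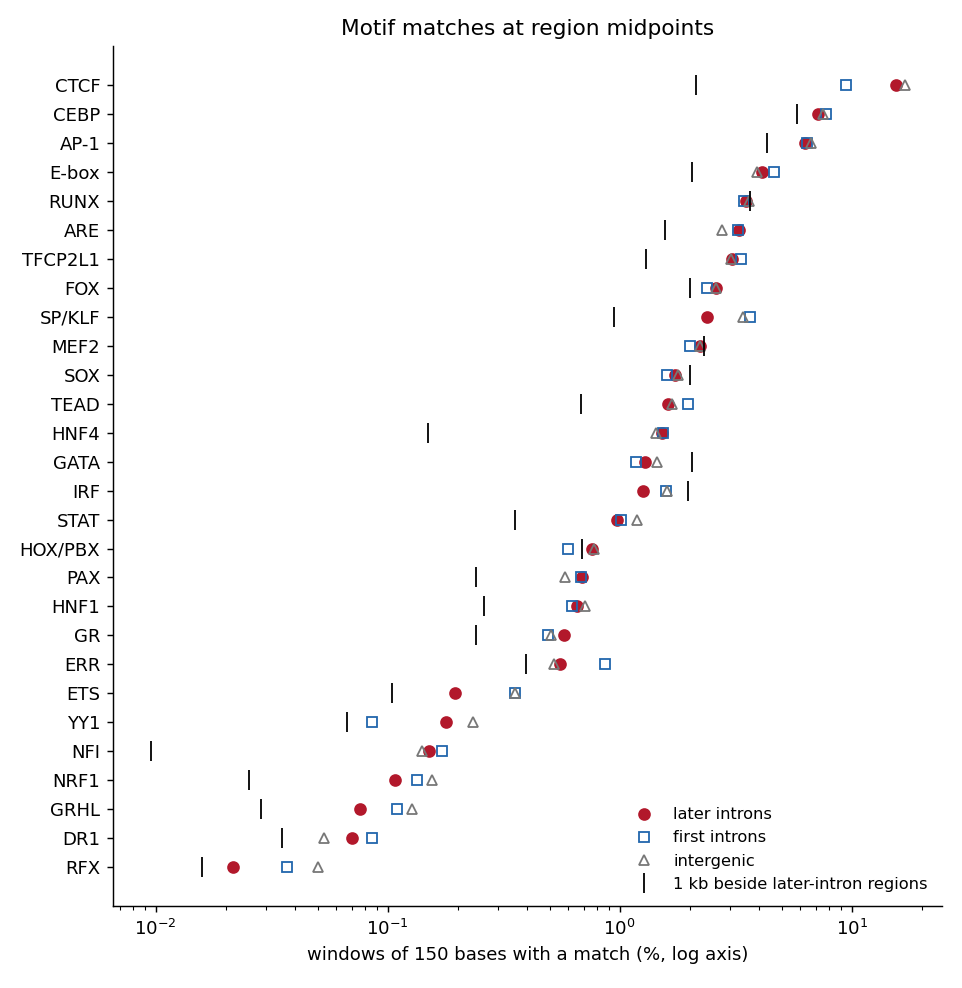
Share of 150-base windows with each of 28 motifs (x axis, log scale, in %) at midpoints of later-intron, first-intron and intergenic regions, and 1 kb beside later-intron regions. CTCF lies at 15.6% in later introns and 9.42% in first introns, and most other motifs lie close together between classes.

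Footprints found in both libraries were present in 11551 members, or 62.4% (61.7 to 63.1). First-intron regions had one in 65.0% (63.9 to 66.0), a difference of -2.57 percentage points (two-sided Fisher's exact test, adjusted p = 8.75e-05). Intergenic regions had one in 62.4% (61.8 to 62.9), a difference of 0.0526 points (Fisher's exact test, adjusted p = 0.909). Each library's own later-intron regions, 27383 in replicate 1 and 23751 in replicate 2, were also set against its own footprints, shared or not. They were above intergenic regions, with 75.2% against 71.4% in replicate 1 (Fisher's exact test, adjusted p = 2.47e-28). In replicate 2 they had 76.8% against 73.9% (Fisher's exact test, adjusted p = 2.61e-16). The share of members with a shared footprint moved with signal. It was 14.5% of members under a signal of 0.5, 56.5% from 0.5 to 1, 87.5% from 1 to 2, 97.5% from 2 to 5 and 100% of 280 at 5 or more.

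First-intron regions had the higher signals, and in the signal bin from 1 to 2 the comparison turned, with intervals apart. In the other signal bins the intervals of later and first introns overlapped. From 0.5 to 1 the shares were 56.5% (55.3 to 57.7) and 54.2% (52.4 to 56.0). Between 1 and 2, members had a footprint in 87.5% (86.6 to 88.4) and first-intron regions in 82.5% (80.9 to 83.9), with intergenic regions at 88.6% (87.9 to 89.2). The difference to first introns was then positive (Fisher's exact test, adjusted p = 5.80e-09). Taking only the strongest region of each host gene turned it too, with 76.4% against 73.3%. Signals were not matched there, as that choice was made by signal. Among regions without a CTCF match, a setting added after the data were seen, first introns stayed higher, with 63.6% against 59.8%.

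Peaks in later introns that were found in a single library were weaker. In replicate 1, 8484 later-intron peaks (30.9%) were not shared, with a median signal of 0.397 against 0.860 for shared ones. In replicate 2, 4945 (20.7%) were not shared, with a median of 0.384 against 0.825. The other library listed at least 1 base at a false discovery rate (FDR) of up to 0.05 under 11.7% of them in replicate 1 and 14.4% in replicate 2. The best FDR was under 0.001 for 82.2% of members in replicate 1 and 74.3% in replicate 2.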

How the data were processed

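The study measured DNase I accessibility in 2 kidney libraries. Per the file headers, files are on mm10, and each library was processed alone. Which aligner and callers ran is not given in the sources used here. The authors deposited a signal per peak, an FDR for runs of bases (deposited q-values up to 0.05), and footprints with a constant level. Depth is not stated. All signals (100%) were whole multiples of 0.00827 in replicate 1 and 0.00834 in replicate 2, within 0.05 steps. Were values scaled per Mtag (mega) and a step 1 tag, depth would be 121 and 119.9 Mtags, so both libraries would be close in depth. This is an inference.

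The longer peak list of each library was used. Overlapping peaks were joined, and a region took the highest signal of each library. Genes came from GENCODE M21. Peaks on chromosome Y (23 and 24) were left out. Densities divide by non-N sequence with exons and TSS zones widened by 110 bases. Intervals are exact, at 95%. Shares were compared by two-sided Fisher's exact tests with Benjamini-Hochberg adjustment over 3 class tests and over 56 motif tests. A shared footprint overlapped in both libraries, and 5 bases were added on each side for motifs. No test ran across samples, as there is 1 group. A region in several hosts (139) was counted in 1. SciPy 1.17.1, pandas 2.3.3, numpy 2.4.6 and bedtools were used, and the tests were checked on simulated data.

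Members and lists were chosen with earlier results of these data known. Named genes were those of the 12 strongest regions under a 2-fold library difference, the 10 hosts with most members, the 10 densest with 5 or more (unnamed models left out), per list the 3 with most members and the strongest region, and the 3 largest library differences each way. For printed sequences, members on chromosome 18 were passed over.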

Additional observations from a re-analysis of the deposited data

How the results depend on the processing

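The directions of the density ratio to first introns, of the open-promoter difference and of the CTCF difference were kept under every alternative run. The number of members was 11542 from the shorter peak lists and 7491 for the stronger part of the regions, and 23751 to 27383 with a replicate left out. The density ratio was 0.782 from the shorter lists, 0.765 where peaks had to share 0.5 of both widths, 0.708 beyond 1 kb and 0.797 beyond 5 kb from a TSS, 0.759 with transcripts ranked by coding length, and 0.644 for the stronger regions. Median signal was 1.22, 0.948 and 1.71 for the shorter lists, the stricter overlap and the stronger regions, and 0.653 to 0.684 with a replicate left out.

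The footprint share was above that of first introns for the stronger regions (91.6%) and for a signal of 1 to 2 (87.5%). The same held with the strongest region per host (76.4%). At 20 to 50 kb, chosen after seeing the data, it was 63.0% against 62.9%. Against intergenic regions it was 67.7% with the stricter peak overlap, 62.4% with exons of protein-coding genes only and 91.6% for stronger regions. It was 87.5% at a signal of 1 to 2 and 50.7% with stricter footprint overlap. Each of these values lay below the intergenic share. With a replicate left out the later-intron share was 75.2% to 76.8%, above the intergenic share and past the threshold. At a signal of 1 to 2, 1 motif (CTCF) was called against first introns and 0 by Fisher's exact test against intergenic regions (3 at an unadjusted p under 0.05), and 1 against intergenic regions from the shorter lists. The causes were not tested.

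No paired analysis was possible because there is 1 group. Depth is only inferred, and weak peaks were found less often in both libraries.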
